A study of Mus musculus with 8 samples.

Results

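Star strands are the arms of miRNA hairpins that an older naming scheme marked with an asterisk as the less abundant product, and 91 of the 517 mouse miRNA assays on this PCR table measure one. The members were chosen by name alone, as mouse assays ending in a star. Left out were 19 star assays of hairpins such as miR-21, miR-34, some of miR-29 and miR-30, and the miR-466 to miR-669 repeats. The stars of miR-29c, miR-30b and both miR-30c copies are members. Of the 91, 85 have the unstarred arm of the same hairpin on the table, which is called the partner here (82 assays, since some hairpin copies share a partner), and 6 (miR-196a*, miR-299*, miR-33*, miR-463*, miR-483* and miR-712*) have none. The table does not name its panels, and its rows were split into 2 panels where the control RNAs recur, an inference on which every value with each panel on its own mean rests. By that split all 91 lie on the second panel, whereas 80 of the 85 have a partner on the first panel and 5 (the stars of miR-22, miR-300, miR-374, miR-378 and miR-485) on the second.

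The study set early plaque against undiseased artery in female Apoe-/- mice, whose loss of apolipoprotein E leaves them with high blood cholesterol and a tendency to atherosclerosis. All 8 samples came from mice listed at an age of 6 to 8 weeks and fed for 3 months on a high-fat diet (21% crude fat, with cholesterol at 0.15% and casein at 19.5%), and each group had 4 samples that the labels call biological replicates. Plaque was labelled as aortic root and the undiseased wall of normal appearance as artery, so plaque cannot be told apart from the site of the vessel, and whether both tissues came from the same animals is not given in the sources used here. Samples are numbered by their titles, and plaque 4 is described elsewhere in its labels as replicate 3. Both tissues were cut by laser capture from at least 40 deparaffinized sections of 20 µm per mouse, and a 10-month diet arm was not analysed here.

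A miRNA hairpin is cut by Drosha and Dicer into a short duplex of its 5′ and 3′ arms. Argonaute usually keeps the guide strand of that duplex and the passenger strand is degraded, so passenger strands tend to be scarce. Because the arms differ in sequence, they differ in their seed, the bases that pair with target mRNAs, and an Argonaute loaded with the star strand would read other targets than one loaded with the partner.

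The let-7 hairpins show this most plainly, and their arms are printed because let-7a* was called lower in plaque under both references used below, and let-7c-1* only with each panel on its own mean. Sequences are RefSeq's mature miRNAs (GRCm38.p6), 5′ to 3′, with the seed (bases 2 to 8) in capitals.
let-7a*: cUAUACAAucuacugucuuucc
let-7a: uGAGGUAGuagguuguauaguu
let-7c-1*: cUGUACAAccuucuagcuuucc
let-7c: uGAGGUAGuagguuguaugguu
let-7g*: aCUGUACAggccacugccuugc
let-7g: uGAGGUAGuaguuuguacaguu
let-7i*: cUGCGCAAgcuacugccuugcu
let-7i: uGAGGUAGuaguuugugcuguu
The 4 let-7 partners share the seed GAGGUAG, known for restraining growth and stem cell genes such as Lin28 and Hmga2, whereas each of their star strands has a seed of its own. The entry for let-7a* is that of the let-7a-1 hairpin (chr13:48538188-48538209, minus strand), and its letters are the same as those of the let-7c-2 star, so that the assay cannot tell these hairpins apart. let-7c-1* lies at chr16:77599717-77599738 on the plus strand, and let-7g* at chr9:106178902-106178923 within the gene Wdr82.

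The next set holds the star strands that passed the test as higher in plaque under the mean of all miRNAs, with their partners, together with miR-135a*, the star strand with the lowest mean Ct among those detected in every sample.
miR-470*: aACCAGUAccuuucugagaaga
miR-470: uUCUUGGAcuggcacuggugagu
miR-130b*: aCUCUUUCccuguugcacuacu
miR-130b: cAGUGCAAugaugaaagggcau
miR-15a*: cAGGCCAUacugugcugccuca
miR-15a: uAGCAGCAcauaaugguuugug
miR-135a*: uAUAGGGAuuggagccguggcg
miR-135a: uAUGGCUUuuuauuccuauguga
No seed is shared within or between these pairs. miR-470* lies on chromosome X (chrX:66813961-66813982, minus strand), miR-130b* at chr16:17124109-17124130 within 2610318N02Rik, and miR-15a* at chr14:61632038-61632059 within the long noncoding gene Dleu2. miR-135a* is the arm of the miR-135a-1 hairpin at chr9:106154179-106154200, which overlaps Glyctk, and its partner is also made from a copy on chromosome 10.

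The table holds raw threshold cycles (Ct), the PCR cycle at which a probe's fluorescence passes a threshold. Less RNA gives a higher Ct, and a Ct of 40 stands for no amplification. An assay was called detected at a Ct under 35. Of the 728 wells of the 91 star strands, 463 read 40 and 10 read from 35 to under 40. Raw Ct differed between samples: over the 124 miRNAs that every sample detected, raw Ct averaged 25.0, 25.0, 24.7 and 26.6 in samples 1 to 4 of undiseased artery, against 27.1, 28.8, 29.9 and 26.3 in plaque 1 to 4 (difference 2.70 cycles, exact permutation p = 0.0571). In tissue samples of this kind, fewer cells of a type and less RNA per cell cannot be told apart. The smooth muscle miRNAs miR-143 and miR-145 and the endothelial miR-126 arms were detected in all 8 samples. The raw Ct of miR-145 was 14.7 to 17.3 in undiseased artery and 22.1 to 25.9 in plaque, and that of miR-143 was 19.7 to 22.0 and 26.6 to 31.0, wider gaps than that of the reference mean. The part of smooth muscle content in the star strand values was not tested. Of the miRNAs listed for heart muscle, miR-499 read 40 in all samples and miR-208 was detected only in plaque 1 and plaque 3. From the same list, miR-133a was detected in all 8 samples (20.3 to 31.0) and miR-1 in all but plaque 2. The leukocyte miRNAs miR-142-3p, miR-155, miR-146b and miR-150 were detected in all 8. Detection of miR-223 failed in plaque 3, and that of miR-142-5p in every plaque sample but plaque 1. The miR-223 assay was uneven within both groups. It read 10.3 to 10.7 in undiseased artery 2 and 3 and plaque 2. In undiseased artery 1 and 4 and plaque 1 and 4 it read 20.8 to 23.3. The erythroid miR-451 was detected in all but plaque 4. The neuronal miR-124 was detected only in undiseased artery 1 to 3.

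Most star strand wells were undetected, and most star strands detected anywhere were found in more undiseased artery samples than plaque samples. Of the 91, 36 were detected in no sample, 21 in 1 to 3 samples, 28 in 4 to 7 samples and 6 in all 8. Of the 407 unstarred assays, 143 were detected in no sample and 107 in all 8. Of the 72 unstarred assays on the second panel, 36 were detected in no sample and 25 in all 8. Detection of the 55 found anywhere was wider in undiseased artery for 40, wider in plaque for 4 and equal for 11. Of all 337 miRNA assays detected in at least 1 sample, 51.6% were detected in more undiseased artery samples and 7.12% in more plaque samples. All 4 undiseased artery samples detected 29 star strands, and all 4 plaque samples detected 6. Of the plaque wells of those 29, 63.8% were detected (median undiseased Ct 29.2). For unstarred assays that all 4 undiseased artery samples detected, the share was 81.4% over 141 on the first panel (median 26.2). It was 98.1% over 26 on the second panel (median 26.7). These sets differ in Ct, so the shares also follow by mean undiseased Ct, for star strands, first panel and second panel in turn. At 30 to 35 they were 54.5% (11 assays), 55.8% (13) and 83.3% (3). At 28 to 30 they were 63.9% (9), 71.2% (33) and 100% (5). Under 28 they were 75% (9), 88.4% (95) and 100% (18). There were 9 star strands found in undiseased artery only and 3 found in plaque only, and the share over all assays is not given here.

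The 4 undiseased artery samples detected 43, 39, 43 and 32 star strands, and plaque 1 to 4 detected 32, 19, 12 and 35. Plaque 3 and plaque 2 lay lowest, plaque 4 lay above undiseased artery 4, and the groups overlapped. Undiseased artery averaged 39.3 ± 5.19 and plaque 24.5 ± 10.8 (SD, n = 4 each), and the difference of -14.8 did not pass a two-sided exact permutation test (p = 0.0857). For partners the counts were 59, 57, 58 and 48 in undiseased artery and 48, 39, 34 and 52 in plaque, a difference in means of -12.3 (exact permutation p = 0.0857). The unstarred assays of the same second panel gave 29, 31, 31 and 27 detections of 72 in undiseased artery and 28, 26, 28 and 31 in plaque (exact permutation p = 0.486). The samples with the latest mean raw Ct, plaque 2 and plaque 3, detected the fewest star strands, and the amount of RNA that entered each sample's reactions was not measured.

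**Figure D1:**
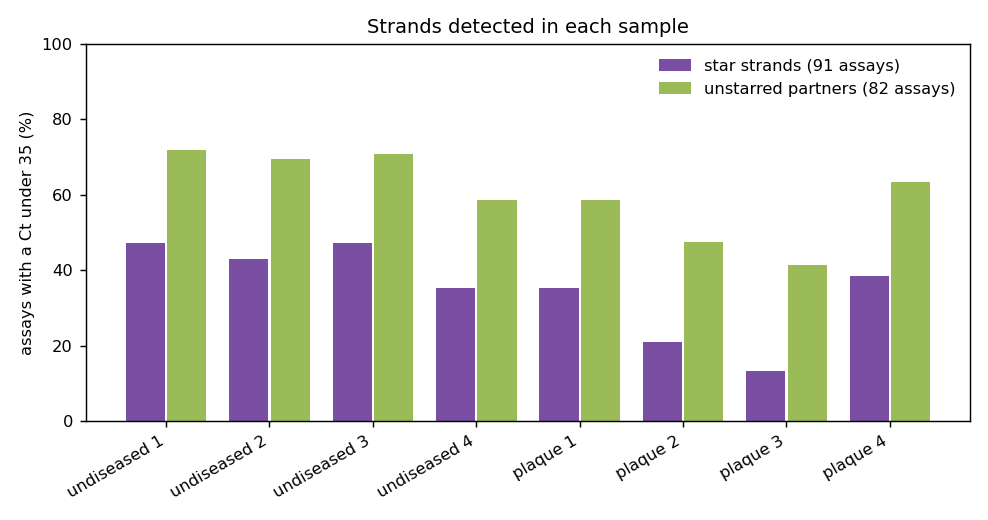
Share of the 91 star strands and of their 82 unstarred partners with a Ct under 35 (y axis, percent of assays) in each of the 8 samples (x axis). Star strands ranged from 35.2% to 47.3% in undiseased artery and from 13.2% in plaque 3 to 38.5% in plaque 4, and in every sample the partner bar is the taller.

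Where a partner was detected, its star strand was detected less often in plaque. Taken over the pairs with a detected partner, the star strand was also detected in 54.8%, 53.3%, 55.7% and 47.1% of pairs in the undiseased artery samples, and in 45.1%, 23.8%, 5.41% and 43.6% in plaque 1 to 4. Every undiseased artery sample lay above every plaque sample, though plaque 1 lay within 2 percentage points of undiseased artery 4. Undiseased artery averaged 52.7% ± 3.92 and plaque 29.5% ± 18.8 (SD, n = 4 each), which is a difference of -23.3 percentage points with a two-sided exact permutation p of 0.0286, the smallest that 4 against 4 samples allow. Plaque 3 set much of its size: the difference was -15.2 percentage points without it and -8.37 without both plaque 2 and plaque 3, where 4 against 2 samples cannot go below an exact permutation p of 0.0667, the value found. The call was lost without any 1 of the undiseased artery samples (exact permutation p from 0.0857 to 0.114, differences from -25.1 to -22.3) and at a detection cutoff of 32 or 38 (p = 0.0571 at either).

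In plaque 3, where the mean raw Ct was latest, 37 pairs had a detected partner and only 2 of these a detected star strand. In undiseased artery 1, the partner was detected in 62 pairs and both arms in 34. Pairs in which the star strand alone was detected did not follow this: they numbered 8, 7, 8 and 8 in undiseased artery and 8, 8, 10 and 11 in plaque (exact permutation p = 0.286).

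The star strands found in all 4 undiseased artery samples and in 1 plaque sample were miR-28*, miR-425*, miR-191*, miR-744*, miR-9* and miR-676*, and none showed the reverse. Over all 337 assays, 8.61% were detected in 3 or 4 more undiseased artery samples and 0% in 3 or 4 more plaque samples, against 6 of the 55 star strands. Fisher's exact test could call none of them: 4 against 1 sample gives p = 0.143 whatever the assay (adjusted p = 1 over the 337 assays), and even 4 against 0 gives 0.0286 before adjustment. No assay of the table passed after adjustment, and 1 of the 337 had an unadjusted p under 0.05. miR-28*, the other arm of a miRNA encoded within the Lpp gene, gave an early Ct in undiseased artery, 24.9, 24.7, 24.1 and 26.2. In plaque it read 40 in samples 1 to 3 and 25.9 in plaque 4, as early as in undiseased artery, although its partner miR-28 was detected in plaque 1, 2 and 4.

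miR-191* and miR-425* come from hairpins of the same cluster. For miR-425* the Ct was 29.4, 28.6, 29.0 and 31.0 in undiseased artery, 29.0 in plaque 4 and 40 in the other plaque samples. Its unstarred partner miR-425 read 40 in all 8 samples, so that only the star arm was seen. The arms of the miR-191 hairpin ran the other way: miR-191 was detected in all 8 samples at a Ct of 20.8 to 28.6, and miR-191* in undiseased artery at 32.1 to 34.7 and in plaque 1 at 33.1.

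miR-9 is best known from neurons, and both of its arms were detected in all 4 undiseased artery samples and in a single plaque sample. The Ct of miR-9* was 28.3, 28.7, 29.1 and 30.9 in undiseased artery and 34.7 in plaque 2, whereas that of miR-9 was 25.5, 26.0, 26.0 and 28.8 in undiseased artery and 33.0 in plaque 4. miR-9* also amplified in plaque 4, at 36.0, past the cutoff. miR-124, the other neuronal miRNA on the marker list, had a Ct of 26.3 to 27.9 in undiseased artery 1 to 3 and 40 elsewhere, and its star strand was detected only in plaque 2, at 33.2. Whether neural tissue had a part in the miR-9* values was not tested. miR-744* was detected in undiseased artery at 30.8 to 34.0 and in plaque 4 at 31.7, and miR-676* in undiseased artery at 30.1 to 32.7 and in plaque 2 at 34.5.

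Some star strands switched between an early Ct and none among samples of 1 group. A Ct under 28 in a sample and 40 in another of the same group was seen for 8 members, in undiseased artery for 3 and in plaque for 7. let-7d* read 25.8 and 26.0 in undiseased artery 2 and 3, 26.9 in plaque 1 and 40 in the other 5 samples, while its partner let-7d amplified in all 8. miR-330* read 26.3 in undiseased artery 1, 25.0 in plaque 4 and 40 elsewhere, and its partner read 40 throughout. The 40s of these assays can therefore not be read as levels just past the cutoff.

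Among the 18 star strands detected in at least 3 samples of each group, 4 passed the test between plaque and undiseased artery, 3 higher and 1 lower in plaque. Levels are given as the negative of the Ct after subtracting the mean Ct of those 124 reference miRNAs, in cycles, so that a difference of 1 is 2-fold if amplification is fully efficient. limma (adjusted p over the 172 miRNAs tested) called 34.3% of all miRNAs tested, 15.7% as higher and 18.6% as lower in plaque. Of the 18, 4 had levels that did not overlap between the groups, against 32.6% of all tested. The median log2 fold change of the 18 star strands was 0.26, against -0.11 over all 172, -0.77 over the 39 partners tested and 1.39 over the 27 unstarred miRNAs of the second panel.

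The panels themselves differed between the groups, which touches every star strand, since all lie on panel 2. The mean Ct of panel 2 minus that of panel 1, over the 124 reference miRNAs, was 1.32, 1.23, 1.37 and 0.696 in undiseased artery and 0.119, -0.574, -1.45 and -0.0036 in plaque (exact permutation p = 0.0286, the smallest possible), so the groups did not overlap. Once each panel was set to its own mean, 2 star strands passed, both lower in plaque, against 20.3% of all 172 miRNAs (8.72% higher and 11.6% lower). The median log2 fold change of the 18 star strands was then -0.71, against -0.18 over all 172, -0.30 over the partners and 0.32 over the unstarred miRNAs of panel 2. The groups then did not overlap for 3 of the 18, against 30.8% of all tested. Fold changes are given below under both references, first with the mean of all miRNAs and then with each panel on its own mean.

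**Figure D2:**
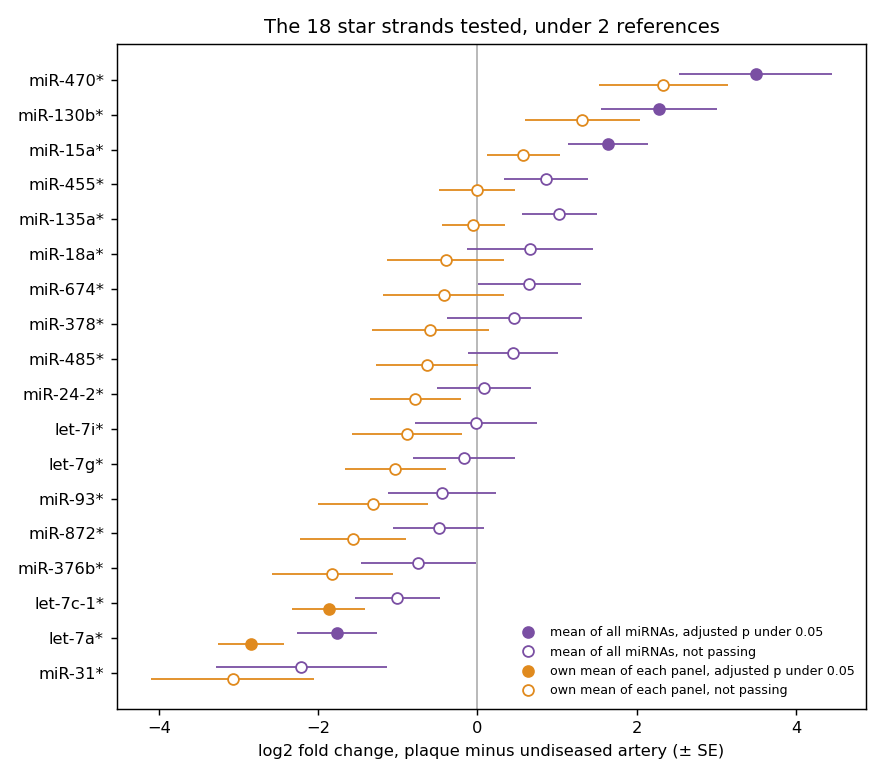
Log2 fold change of plaque against undiseased artery (x axis, ± SE from limma) for the 18 star strands tested (y axis), with the mean of all miRNAs as reference and with each panel on its own mean; filled points have an adjusted p under 0.05. let-7a* is the star strand with a filled point under both references, at -1.76 and -2.84, and the values with each panel on its own mean lie lower for all members.

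let-7a* was lower in plaque by both references. In undiseased artery 1 to 4 its raw Ct was 26.4, 26.7, 25.7 and 28.3, and in plaque 1 to 4 it was 30.9, 31.6, 32.3 and 30.3. Its level was -1.40, -1.75, -1.03 and -1.68 in undiseased artery and -3.72, -2.78, -2.34 and -4.07 in plaque, so that every plaque sample lay below every undiseased artery sample. The log2 fold change was -1.76 ± 0.500 (SE; 3.39-fold lower, limma adjusted p = 0.0268). With each panel on its own mean it was -2.84 ± 0.414 (7.15-fold lower, limma adjusted p = 0.0016), and it passed with any 1 sample left out (-3.02 to -2.65).

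With the mean of all miRNAs, the let-7a* call was lost without undiseased artery 1 (-1.75, adjusted p = 0.0655), 2 (-1.85, adjusted p = 0.0700) or 3 (-1.62, adjusted p = 0.0940). It was also lost against the control RNAs (-2.24, adjusted p = 0.203) and against U6 alone (-2.21, adjusted p = 0.470), where the change was larger. It passed with mean raw Ct as a covariate (-2.65, adjusted p = 0.0346) and with quantile normalization (-2.70, adjusted p = 0.0079). The partner let-7a was detected in undiseased artery 1 to 3 at 22.3, 22.1 and 22.0 and read 40 in undiseased artery 4 and in all plaque samples. No fold change was computed for let-7a, and an assay that reads 22.0 in a sample and 40 in another of its group gives no level for the latter.

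let-7c-1* passed only with each panel on its own mean. Undiseased artery gave a raw Ct of 28.6, 29.1, 28.04 and 29.6 and plaque gave 32.4, 32.9, 40 and 30.5, so plaque 3 has no level. This came to a log2 fold change of -1.004 ± 0.529 (limma adjusted p = 0.169), and -1.87 ± 0.456 with each panel on its own mean (3.65-fold lower, limma adjusted p = 0.0259; 4 samples against 3). That second call was lost without any 1 of the undiseased artery samples or plaque 1 (-2.05 to -1.58, adjusted p from 0.0527 to 0.0942). The partner let-7c, detected in all 8 samples, fell by 1.75 on the log2 scale (limma adjusted p = 0.0360), and with each panel on its own mean its change of -1.19 did not pass (adjusted p = 0.115).

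The other let-7 star strands tested, let-7g* and let-7i*, had log2 fold changes of -0.17 ± 0.639 and -0.02 ± 0.767 that did not pass (limma adjusted p = 0.854 and 0.982), and they are named for comparison, chosen after their values were seen. With each panel on its own mean they were -1.03 and -0.88 (adjusted p = 0.237 and 0.353). Both read 40 in plaque 3. The partner let-7g fell by 2.19 with the mean of all miRNAs (limma adjusted p = 0.0327) and let-7i had a change of -0.77 (adjusted p = 0.240), whereas let-7b* and let-7f* read 40 in every well.

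miR-470*, an arm of an X-linked hairpin whose partner is known in mouse embryonic stem cells for targeting Nanog, had a higher level in plaque with the mean of all miRNAs. Raw values of 31.9, 33.1, 33.5 and 35.2 in undiseased artery stood against 32.1, 40, 32.2 and 32.3 cycles in plaque, so undiseased artery 4 lay just past the cutoff, plaque 2 did not amplify, and the other 6 samples were late. The 3 undiseased artery samples had levels of -6.86, -8.08 and -8.82, and plaque 1, 3 and 4 had -5.01, -2.26 and -6.02, which did not overlap. The difference in level, as a log2 fold change, was 3.49 ± 0.965 (11.2-fold higher, limma adjusted p = 0.0270), and 2.33 ± 0.812 with each panel on its own mean (adjusted p = 0.0739). Raw Ct differed by 0.62 (adjusted p = 0.622), against the difference of 2.70 cycles in the reference mean. The call was lost without undiseased artery 2 (3.41, adjusted p = 0.0770) or 3 (3.04, adjusted p = 0.0982), and without plaque 3 the value was 2.49. It was 0.49 (adjusted p = 0.744) with mean raw Ct as a covariate and 1.23 (adjusted p = 0.233) with quantile normalization, and its partner read 40 in all 8 samples.

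miR-15a*, whose partner is known for restraining Bcl2 and cell cycle genes, had a raw Ct of 28.03, 27.5, 27.5 and 28.5 in undiseased artery and 28.5, 40, 30.7 and 26.8 in plaque. Its level was -3.01, -2.50, -2.78 and -1.88 in undiseased artery and -1.36, -0.82 and -0.55 in plaque 1, 3 and 4, with no overlap. Plaque was higher by a log2 fold change of 1.63 ± 0.501 with the mean of all miRNAs (3.10-fold higher, limma adjusted p = 0.0349), 0.58 ± 0.460 with each panel on its own mean (adjusted p = 0.359) and -0.80 on raw Ct. The call was lost without undiseased artery 1, 2 or 3 or plaque 3 (1.46 to 1.66, adjusted p from 0.0627 to 0.108). Setting the undetected plaque 2 to the cutoff gave 0.32 (adjusted p = 0.857), quantile normalization 0.58 (adjusted p = 0.534) and mean raw Ct as a covariate 1.36 (adjusted p = 0.212).

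miR-130b* had a raw Ct of 32.2, 33.0, 30.2 and 40 in undiseased artery and 32.5, 33.4, 40 and 30.2 in plaque. Plaque 1, 2 and 4 had levels of -5.34, -4.55 and -3.97, all above the -7.21, -7.96 and -5.53 of undiseased artery 1 to 3. The change was 2.28 ± 0.731 on the log2 scale with the mean of all miRNAs (4.86-fold higher, limma adjusted p = 0.0407), 1.32 ± 0.724 with each panel on its own mean (adjusted p = 0.190) and -0.22 on raw Ct. The call was lost without undiseased artery 1, 2 or 4 or plaque 2 or 4 (1.75 to 2.27, adjusted p from 0.0535 to 0.146), with quantile normalization (0.95, adjusted p = 0.393) and with mean raw Ct as a covariate (2.91, adjusted p = 0.212). Its partner miR-130b had a change of 0.29 (limma adjusted p = 0.710). None of the 3 star strands called higher was detected in all 8 samples, and none stayed called with each panel on its own mean.

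**Figure D3:**
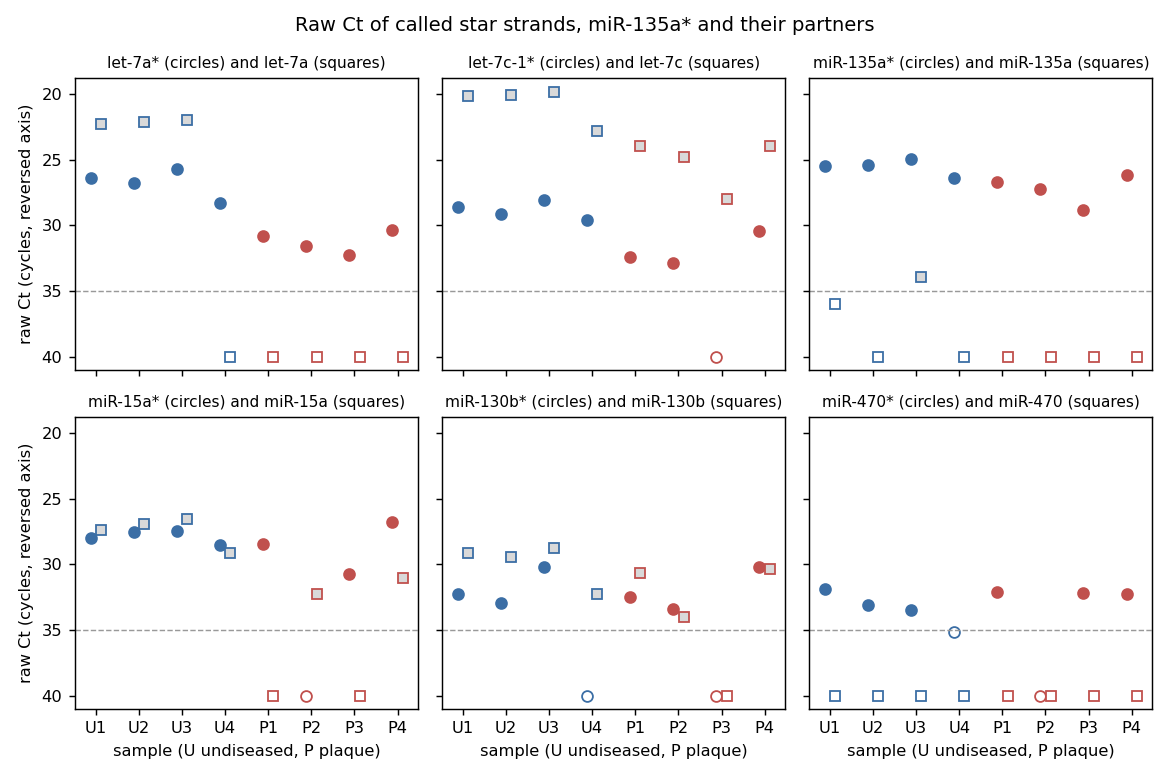
Raw Ct (y axis, cycles, reversed so that more RNA is higher) in the 8 samples (x axis, U undiseased artery, P plaque) of star strands called under either reference and of miR-135a* (circles), each with its partner (squares); the dashed line is the detection cutoff of 35 and points at 40 did not amplify. The plaque points of let-7a* lie from 30.3 to 32.3, all below the undiseased points on the reversed axis, while miR-15a* and miR-130b* overlap between the groups in raw Ct.

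The 6 star strands detected in all 8 samples were let-7a*, miR-135a*, miR-376b*, miR-485*, miR-674* and miR-872*, and apart from let-7a* none passed under either reference with all 8 samples. In every one of these the star strand was found in more samples than its partner. Some partner wells read 40 beside earlier ones, so these counts do not rank levels. The partner let-7a read 22.0 to 22.3 in undiseased artery 1 to 3 and 40 elsewhere. The partner miR-376b read 28.45 to 31.97 in 7 samples and 40 in plaque 4. miR-135a* had a raw Ct of 25.5, 25.4, 25.0 and 26.4 in undiseased artery and 26.7, 27.3, 28.8 and 26.2 in plaque. Its partner miR-135a was detected in undiseased artery 3 alone, at 34.0, and read 36.0 in undiseased artery 1 and 40 elsewhere. The log2 fold change of miR-135a* was 1.03 ± 0.469 (limma adjusted p = 0.107), and -0.05 ± 0.392 with each panel on its own mean (adjusted p = 0.922). Without plaque 4 it was 1.27 and passed under the first reference (adjusted p = 0.0385).

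miR-376b* and miR-485* come from the imprinted Dlk1-Dio3 region of chromosome 12, a cluster best known from embryo and brain. miR-376b* had a Ct of 27.6, 29.2, 27.9 and 32.8 in undiseased artery and 32.1, 33.8, 34.0 and 31.4 in plaque, with undiseased artery 4 among the plaque values. Its log2 fold change was -0.74 ± 0.720 (limma adjusted p = 0.443), and -1.82 ± 0.762 with each panel on its own mean (adjusted p = 0.112). miR-485* had a Ct of 26.8, 28.3, 26.9 and 29.6 in undiseased artery and 29.2, 31.96, 32.2 and 27.2 in plaque, and its partner on the same panel read 40 in all 8 samples. Its log2 fold change was 0.44 ± 0.567 (limma adjusted p = 0.545) and turned to -0.63 with each panel on its own mean (adjusted p = 0.469).

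miR-674* had a Ct from 26.3 to 29.5 in undiseased artery and from 26.4 to 32.9 in plaque, its partner being detected in undiseased artery 2, plaque 1 and plaque 4 only. Its log2 fold change was 0.65 ± 0.645, and -0.43 with each panel on its own mean (limma adjusted p = 0.448 and 0.702). miR-872*, from a hairpin within Ift74, had a Ct from 27.2 to 29.7 in undiseased artery and from 28.1 in plaque 4 to 34.0 in plaque 3. Its log2 fold change was -0.49 ± 0.571, and -1.57 with each panel on its own mean (limma adjusted p = 0.514 and 0.114). The groups overlapped for both.

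The mean Ct of these 6 star strands minus that of the 25 unstarred miRNAs of the same panel detected in all samples compares assays run on 1 panel. It was 1.75, 2.13, 1.51 and 3.06 in undiseased artery and 3.32, 3.84, 4.56 and 2.57 in plaque. Undiseased artery 4 lay above plaque 4, so the groups overlapped, and the order of the samples was close to that of the mean raw Ct (26.6 in undiseased artery 4, 26.3 in plaque 4 and 29.9 in plaque 3). The part of RNA amount in this difference was not tested.

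Most partners were detected more widely than their star strands, but not all. Among the 85 pairs the partner was detected in more samples in 53, the star strand in more samples in 18, both in equal and nonzero numbers in 2, and neither anywhere in 12. No pair had both arms in all 8 samples, though 34 had the partner and 6 the star strand there. In 11 pairs the partner was detected in all 8 samples and the star strand in none: let-7b, miR-101a, miR-106b, miR-127, miR-133a, miR-148a, miR-150, miR-15b, miR-92a and the stars of both miR-30c copies, which share a partner. miR-145, an early assay with a Ct of 14.7 to 17.3 in undiseased artery, had its star strand in undiseased artery 3 alone, at 32.4. Assay efficiencies differ, so no level of a star strand is set against that of its partner. Counts of samples can also turn on partner wells that read 40 beside early ones, as for let-7a.

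**Figure D4:**
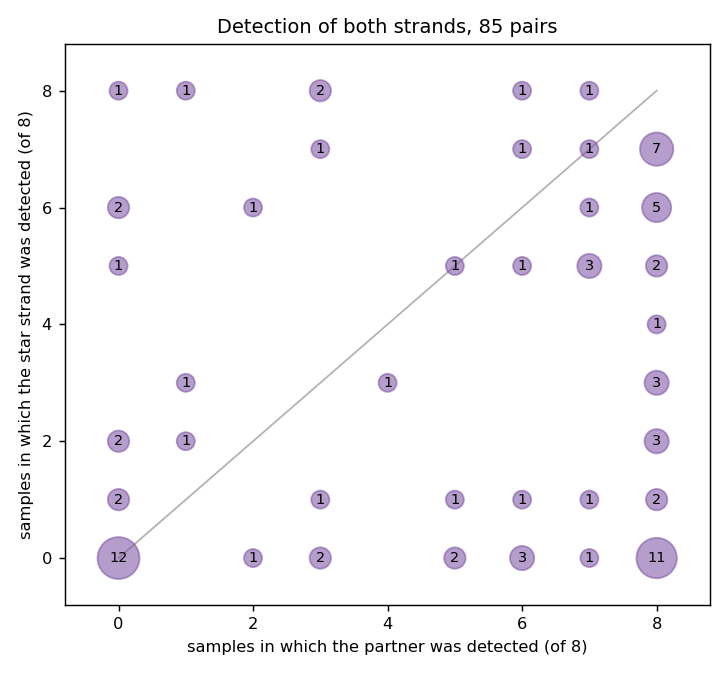
Number of samples of 8 in which the star strand (y axis) and its partner (x axis) were detected, for the 85 pairs; pairs above the diagonal have the wider star strand. The 53 pairs below the diagonal outnumber the 18 above it, and 11 pairs sit at 8 for the partner and 0 for the star strand.

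In 8 pairs the star strand was detected and the partner in no sample: miR-200a*, miR-330*, miR-425*, miR-470*, miR-485*, miR-503*, miR-879* and miR-881*. miR-503, a miRNA known for slowing the cell cycle, read 40 throughout, while miR-503* had a Ct of 31.1, 34.6, 31.8 and 32.9 in undiseased artery and of 32.3 and 30.03 in plaque 3 and 4. miR-200a* (34.0 in undiseased artery 3) and miR-881* (33.0 in plaque 1) were detected in a single sample, and miR-879* in undiseased artery 1 and 3 at 30.8 and 33.0. For the last 3 a single late Ct or a pair of them is all the evidence of the star arm.

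Printed next are the arms of pairs where the star strand was the wider one in detection without being called, as the letters by which the assays differ; RefSeq's table gave no entry for miR-485.
miR-425*: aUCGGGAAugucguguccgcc
miR-425: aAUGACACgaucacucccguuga
miR-503*: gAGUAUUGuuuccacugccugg
miR-503: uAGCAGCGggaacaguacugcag
miR-18a*: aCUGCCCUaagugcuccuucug
miR-18a: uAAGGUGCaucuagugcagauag
miR-7a*: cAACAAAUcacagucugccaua
miR-7a: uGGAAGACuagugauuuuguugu
miR-485*: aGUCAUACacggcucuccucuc
miR-18a belongs to the miR-17-92 cluster, and miR-18a* was detected in 7 samples against 3 for miR-18a. Its Ct was 29.9, 29.7, 28.8 and 32.02 in undiseased artery and 33.4, 40, 32.8 and 29.4 in plaque. The log2 fold change of miR-18a* was 0.66 ± 0.792, and -0.40 with each panel on its own mean (limma adjusted p = 0.523 and 0.707). Under the first reference it was 1.73 and passed without plaque 1 (adjusted p = 0.0472), and was 0.13 without plaque 3 and 0.19 without plaque 4. miR-7a*, from the miR-7a-1 hairpin within Hnrnpk, had a Ct of 27.5, 27.3, 26.9 and 28.2 in undiseased artery, 30.01 in plaque 1, 27.5 in plaque 4 and 40 in plaque 2 and 3, whereas miR-7a was detected in undiseased artery 1 and 3 only. miR-10b* and miR-183* were detected in 2 and 3 samples and their partners in 1 each.

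For 10 star strands, both arms were detected in at least 3 samples of each group, and none showed a change in the balance of the arms that passed the test. The balance was taken as the Ct of the partner minus that of the star strand in the same sample, so that an offset of the whole sample cancels while an offset between panels does not, and a higher value means relatively more star strand. By limma none of the 10 passed, and the same holds for all 22 star and partner pairs tested (0% called). An unadjusted p under 0.05 was reached by 1 of the 10, and by 3 of the 22. With each panel on its own mean, again none of the 10 passed, against 4.55% of the 22, with 4 of the 10 at an unadjusted p under 0.05. The median change of the 10 was 0.23 against 0.45 over the 22, and -1.01 against -0.85 with each panel on its own mean.

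The member with the unadjusted p was miR-130b*. The balance stood at -3.09, -3.53 and -1.50 in the 3 undiseased artery samples measured. Plaque 1, 2 and 4 had -1.80, 0.60 and 0.15, so plaque 1 lay among the undiseased values. The change was 2.35 ± 0.919 cycles (SE, limma adjusted p = 0.208), and 0.89 with each panel on its own mean (adjusted p = 0.514). In the let-7 pairs the change was 1.69 ± 0.908 for let-7g*, 0.43 ± 0.827 for let-7c-1* and 0.47 ± 0.911 for let-7i*, none of which passed (limma adjusted p = 0.232, 0.704 and 0.704). With each panel on its own mean, the last 2 turned to -0.87 and -0.83 and let-7g* was 0.38.

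For miR-31*, whose partner is known in human endothelium for repressing E-selectin, the balance was -2.90, -2.68, -2.60 and -2.47 in undiseased artery and -5.43, -3.07 and -2.92 in plaque 1, 2 and 4. The groups did not overlap, with plaque 4 close to undiseased artery 1, and the change was -1.15 ± 0.812 (limma adjusted p = 0.293), or -2.45 ± 0.693 with each panel on its own mean (adjusted p = 0.0608). miR-31* had a Ct of 28.3, 27.6, 26.9 and 29.2 in undiseased artery and 34.99, 31.0, 40 and 30.9 in plaque, and was named after its values were seen. Its own log2 fold change was -2.21 ± 1.08 (limma adjusted p = 0.132), and -3.08 ± 1.03 with each panel on its own mean (adjusted p = 0.0579). Under the first reference it was -3.56 and passed without plaque 2 (adjusted p = 0.0188), and was -0.73 without plaque 1, where the change in balance was -0.34. miR-376b* had a balance of 0.89, -0.37, 0.67 and -3.60 in undiseased artery and -1.63, -1.82 and -3.98 in plaque 1 to 3, a change of -1.87 ± 1.00 (limma adjusted p = 0.232). Without undiseased artery 4 it was -2.87 and passed (limma adjusted p = 0.0422), the only balance among the members to pass with a sample left out, and with mean raw Ct as a covariate the sign turned (2.49, adjusted p = 0.443).

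**Figure D5:**
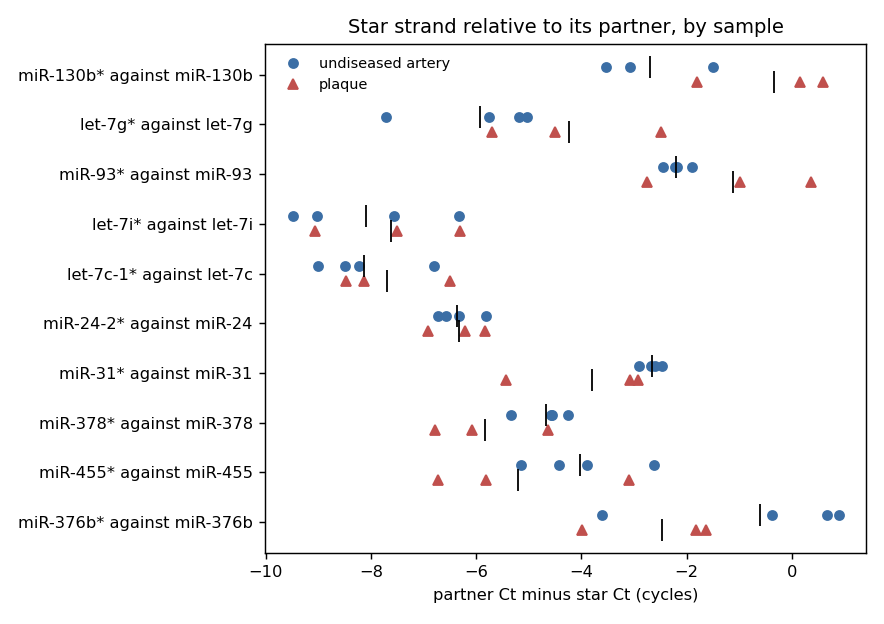
Partner Ct minus star strand Ct (x axis, cycles; a higher value is relatively more star strand) in each sample for the 10 testable members with their partners (y axis), circles for undiseased artery and triangles for plaque. For miR-31* all 3 plaque points lie left of the undiseased points, at -5.43 to -2.92, and for the other 9 pairs the groups overlap.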

How the data were processed

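The authors deposited raw threshold cycles (Ct), with 40 for no amplification; the values bear no mark of normalisation or filtering. Per the labels, RNA came from laser-captured sections by the RecoverAll kit and probes carried FAM. The sources used here do not give the instrument, preamplification or threshold setting. Members follow a rule on assay names, and this rule and the lists were set with earlier results of these data known.

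A Ct under 35 counted as detected, detected repeat wells were averaged, and each sample was centred on the mean Ct of the 124 miRNAs found in every sample (82 on panel 1, 42 on panel 2), or each panel on its own mean. limma 3.58.1 in R 4.3.3 (lmFit, eBayes, two-sided, group as the only term, undetected values missing) was fitted to the 172 miRNAs that 3 or more samples in each group detected, with Benjamini-Hochberg adjustment over the 172 and a threshold of 0.05. The steps were tested on simulated data. The balance of arms was fitted the same way over 22 pairs. Sample measures were compared by exact permutation of 70 arrangements, and detection by Fisher's exact test, adjusted over 337 assays. The labels call the samples biological replicates. Depth on a PCR panel is the RNA that entered it, described here by the mean raw Ct. Named members were those called under either reference, detected in all samples, detected in 3 or 4 samples more of a group, or detected in more samples than their partner. Those named outside this rule (let-7b*, let-7d*, let-7f*, let-7g*, let-7i*, miR-31*, miR-124*, miR-125b*, miR-145* and the pairs with an undetected star strand) were chosen after their values were seen. Mature sequences were found in RefSeq's table for 37 of 38 assays looked up.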

Additional observations from a re-analysis of the deposited data

Results flagged for a closer look

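The level of miR-425* in undiseased artery 2 was -3.58, against -4.38 to -4.30 in the other 3 undiseased artery samples, so that this sample lay apart from the rest of its group by 0.907 of the group's whole range. It was the only such case among 45 groups of 4 samples examined, where chance gives about 1 in 20.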

How the results depend on the processing

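The count of star strands called between plaque and undiseased artery was 4 of the 18 tested. Among the same 18 it was 2 with each panel on its own mean and 0 with control RNAs or U6. It was 1 with quantile normalization and 1 with mean raw Ct as a covariate. On raw Ct it was 5, all lower in plaque. Some settings tested other numbers of members: 2 of 6 were called at a Ct under 32, and 1 of 6 with assays detected in all samples. With 1 sample left out the count ranged from 0 of 18 (without undiseased artery 2) to 6 (of 20 without plaque 1, of 26 without plaque 2). It ranged from 1 to 6 with each panel on its own mean, where leaving 1 sample out was chosen after seeing the data. The count of arm balances called was 0 of 10. With pairs detected in at least 1 sample of each group, 28 were tested and miR-125b* was called, with plaque 1 and 4 as its only plaque samples. No count is given for that setting, since a pair such as miR-15a* had both arms in plaque 4 alone. With a sample left out, the count of arm balances called ranged from 0 to 1, and no member pair was detected in all samples. The share of detected partners whose star strand was detected differed by -24.7 at a Ct under 32 and -21.2 under 38, by -28.5 to -15.2 with 1 sample left out, and by -8.37 without plaque 2 and 3, chosen after seeing the data. Counts of star strands and partners detected kept their direction and did not pass under any setting run. Signs turned for uncalled values: let-7g* 0.047 with undetected values at the cutoff, 0.17 with the covariate and -0.68 to 0.17 with a sample left out; let-7i* 0.021 at a Ct under 38, 0.35 at the cutoff and -0.52 to 0.52 with a sample left out; miR-872* 0.79 with the covariate; miR-376b* balance 2.49 with the covariate; let-7i* balance -0.33 with the covariate, -0.83 with each panel on its own mean and -0.18 to 1.20 with a sample left out; let-7c-1* balance -0.87 with each panel on its own mean and -0.17 to 0.87 with a sample left out. With each panel on its own mean the sign turned for miR-135a* (-0.050), miR-18a* (-0.40), miR-485* (-0.63) and miR-674* (-0.43). On raw Ct it turned for miR-130b* (-0.22), miR-135a* (-1.67), miR-15a* (-0.80), miR-18a* (-1.77), miR-485* (-2.25) and miR-674* (-2.05). With quantile normalization it turned for miR-18a* (-0.28), miR-485* (-0.70) and miR-674* (-0.24). For miR-485* the control RNAs gave -0.040 and U6 -0.0034. The cause was not tested. Whether the replicate numbers pair the samples is not given. Same-numbered deviations from the group means over 124 assays correlated at 0.130, 0.191, -0.245 and -0.155. The highest correlation with another number was 0.042, 0.099, 0.154 and 0.289. With deviations from means of 4 samples, these values cannot decide whether samples were paired. With a replicate block, 3 star strands and 1 arm balance (miR-376b*, -2.87, limma adjusted p = 0.0316) were called, and let-7g* was 0.17. A Ct near 35 is the limit of these values, and mean raw Ct, panel and vessel site move with the groups.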
